A study of Homo sapiens with 16 samples.

Results

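The genes described here are 7 long noncoding RNAs, MALAT1, NEAT1, SAMMSON, TUG1, KCNQ1OT1, MEG3 and H19, chosen by name and matched to the Ensembl identifiers of both deposited count tables. All 7 were found among 60676 gene rows, of which 15904 belong to long noncoding gene types of GENCODE release 29. Total RNA was profiled in 8 libraries (replicates 1 to 8) of each of A101D and MeWo, cell lines grown from human melanomas. A101D is labelled with methionine dependence, meaning that its growth fails when methionine is replaced by its precursor homocysteine, and MeWo with methionine independence. The growth protocol, shared by all libraries, lists a control medium (methionine at 200 µM) beside one in which homocysteine, also at 200 µM, takes the place of methionine; cystine at 150 µM and dialyzed serum are in both. No label says which library grew in which medium, or whether the libraries of a line came from separate cultures. The p-values below therefore measure only the spread between these libraries, which may be technical, and each line stands for 1 cell line of its kind, so a line difference and methionine dependence cannot be told apart.

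Long noncoding RNAs are transcripts that act without being translated. MALAT1 and NEAT1 are made from neighbouring genes and stay in the nucleus, where MALAT1 gathers in nuclear speckles, stores of splicing factors, and NEAT1 forms the scaffold of paraspeckles, bodies that hold RNA-binding proteins. KCNQ1OT1, H19 and MEG3 are imprinted, made from the copy of 1 parent only; KCNQ1OT1 silences neighbouring genes on its own chromosome, H19 is abundant in fetal tissues, and MEG3 is known as a growth-restraining RNA that is often silenced in tumours. SAMMSON is a lineage RNA of pigment cells and melanoma, encoded near the melanocyte regulator MITF and switched on by SOX10, and TUG1 is a widely expressed RNA first described in the developing retina.

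The A101D libraries held 28910881 to 38961862 counts each, and the MeWo libraries 31217443 to 38722489. Levels are given as CPM, the count for a library size of 1000000, scaled between libraries by the trimmed mean of M-values (TMM), and the lines were compared with limma over 19247 genes with enough counts; an adjusted p under 0.05 was called. All 7 markers of pigment cells and melanoma had counts in both lines, and their summed level was 2527 to 3442 CPM for A101D libraries against 8177 to 9010 CPM for MeWo libraries. Of these 7, 5 were called higher in MeWo and 2 lower: PMEL, a pigment granule gene, made up most of the MeWo sum (6640 ± 198 CPM against 223 ± 24.6 in A101D), whereas DCT (log2 -1.56) and S100B (log2 -2.21) were lower there. The 4 fibroblast markers also had counts in both lines, summing to 590 to 1039 CPM for A101D libraries and only 71.7 to 81.3 CPM for MeWo libraries. This list was split as well, with 2 genes called higher and 2 lower in MeWo. The A101D sum was nearly all COL1A2, a collagen gene, at 778 ± 192 CPM (SD, n = 8), and the MeWo sum nearly all LUM, a matrix proteoglycan gene, at 73.9 ± 3.52 CPM. The leukocyte, endothelial, keratinocyte and other epithelial lists summed to at most 28.5 CPM in any library, KRT1 being at 0 in A101D. The part of these markers in the results below was not tested. MeWo replicate 2 stood apart from the other MeWo libraries by its number of genes with a count, 34471 against 30066 to 31433.

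In GENCODE release 29 on GRCh38, the build that the submitters' processing notes name, MALAT1 lies at chr11:65497688-65506516 and NEAT1 at chr11:65422774-65445540, both on the plus strand and both as a single exon block, of 8829 and 22767 bases. KCNQ1OT1 is a single block of 91667 bases at chr11:2608328-2699994 on the minus strand, inside and antisense to KCNQ1, and H19 holds 2897 exonic bases at chr11:1995176-2001470 on the minus strand. SAMMSON spans chr3:69999550-70518064 on the plus strand, with 15695 exonic bases in 36 blocks. TUG1 is annotated as 1 block of 10151 bases at chr22:30969245-30979395 on the plus strand, of the type that shares a bidirectional promoter, and MEG3 spans chr14:100779410-100861031 on the plus strand with 23224 exonic bases. The other genes annotated over MALAT1, NEAT1, TUG1, MEG3 and H19, in whole or in part, had no count in any library. Where such a gene shares exonic bases with a member, its count is uncertain, and the lack of counts does not show that it was silent. RNPC3P1, a pseudogene on the opposite strand that shares 336 exonic bases with SAMMSON, had 7 counts in all A101D libraries and 21 in all MeWo libraries. KCNQ1, on the opposite strand of KCNQ1OT1, had 14 counts in all 8 A101D libraries and 5 in all 8 MeWo libraries.

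RefSeq promoter sequences (GRCh38.p14, 250 bases before to 50 after an annotated start) were at hand for 4 of the 7 genes, with 7 start sites in all. They are shown because they set the highly expressed MALAT1 and TUG1 beside the scarce MEG3 and H19. All run 5′ to 3′ on the strand of the gene, at chr11:65497488-65497787 (MALAT1, first start), chr11:65498795-65499094 (MALAT1, second start), chr22:30969015-30969314 (TUG1), chr14:100825858-100826157 (MEG3, first start) and chr11:2001217-2001516 (H19, minus strand). Capitals mark every match, on either strand, to 8 short motifs. These are the E-box, searched as CACGTG, and the M-box core, searched as CATGTG. For SOX factors the first core searched was ACAAAG, and the second core searched was ACAATG. The core of cyclic AMP response elements was searched as TGACG, the CCAAT box under its own letters, the TATA box as TATAAA, and the GC box as GGGCGG.
MALAT1 first start: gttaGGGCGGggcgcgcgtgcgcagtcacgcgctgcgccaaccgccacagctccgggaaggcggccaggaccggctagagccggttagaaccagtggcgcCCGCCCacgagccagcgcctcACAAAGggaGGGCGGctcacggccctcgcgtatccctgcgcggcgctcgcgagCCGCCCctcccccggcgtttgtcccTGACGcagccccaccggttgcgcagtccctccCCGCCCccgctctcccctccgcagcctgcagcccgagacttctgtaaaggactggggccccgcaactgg
MALAT1 second start: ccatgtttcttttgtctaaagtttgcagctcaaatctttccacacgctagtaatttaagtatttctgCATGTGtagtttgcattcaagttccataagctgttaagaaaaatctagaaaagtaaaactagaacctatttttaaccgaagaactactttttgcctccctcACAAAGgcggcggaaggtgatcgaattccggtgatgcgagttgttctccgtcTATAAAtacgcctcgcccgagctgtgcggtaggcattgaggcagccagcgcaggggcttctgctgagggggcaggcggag
TUG1: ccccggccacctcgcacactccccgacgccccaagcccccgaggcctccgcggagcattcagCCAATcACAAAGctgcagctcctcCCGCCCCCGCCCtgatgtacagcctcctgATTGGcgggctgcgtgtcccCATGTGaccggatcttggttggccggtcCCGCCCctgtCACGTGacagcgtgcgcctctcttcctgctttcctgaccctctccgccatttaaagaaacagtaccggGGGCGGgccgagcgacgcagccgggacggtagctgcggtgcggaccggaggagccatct
MEG3 first start: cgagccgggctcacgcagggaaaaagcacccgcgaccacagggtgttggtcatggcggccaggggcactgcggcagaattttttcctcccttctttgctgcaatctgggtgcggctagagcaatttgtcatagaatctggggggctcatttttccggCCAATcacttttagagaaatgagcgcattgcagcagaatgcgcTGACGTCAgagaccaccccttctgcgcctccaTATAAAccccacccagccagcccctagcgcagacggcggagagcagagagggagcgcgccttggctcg
H19: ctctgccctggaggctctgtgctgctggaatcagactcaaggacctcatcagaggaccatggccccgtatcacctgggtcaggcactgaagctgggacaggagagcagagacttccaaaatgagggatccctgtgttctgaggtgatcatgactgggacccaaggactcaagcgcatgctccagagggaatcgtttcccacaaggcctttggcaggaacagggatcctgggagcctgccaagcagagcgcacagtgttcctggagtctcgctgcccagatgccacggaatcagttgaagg

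The first MALAT1 promoter held 5 GC boxes and no TATA box, with a GC content of 73.7%, higher than in 87.7% of the 35116 promoters of the RefSeq table. The second MALAT1 start had a TATA box beginning 30 bases upstream, and its GC content was 46.0%. TUG1 held 1 E-box, 1 M-box core, 1 match to the first SOX core, 2 CCAAT boxes and 4 GC boxes. MEG3 held 1 CCAAT box, 1 TATA box and 2 overlapping cyclic AMP response cores, on opposite strands, and H19 held none of the 8 motifs. Among all 35116 promoters, 7.26% held the E-box, 11.1% the M-box core, 16.1% the first and 10.8% the second SOX core, 24.6% the cyclic AMP response core, 34.6% the CCAAT box, 11.5% the TATA box and 45.0% the GC box. A match is a description of the letters and not evidence of binding.

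Compared between genes per exonic length, MALAT1 was the most abundant of the 7 in both lines. The length joins all annotated exons of a gene and is not that of the transcripts made. The order of the genes below therefore depends on the annotation and is not a measured order of transcript number. Its level was 185 ± 17.2 CPM per kilobase in A101D and 279 ± 43.8 in MeWo (SD, n = 8 each). NEAT1 stood at 14.3 ± 3.34 CPM per kilobase in A101D and 21.1 ± 4.11 in MeWo, and TUG1 at 12.4 ± 1.19 and 13.9 ± 0.835. NEAT1 and TUG1 overlapped between libraries in A101D, and in MeWo the lowest NEAT1 library (14.8) was below the highest TUG1 library. Far below followed KCNQ1OT1 (0.424 ± 0.0682 and 0.586 ± 0.103 CPM per kilobase) and SAMMSON (0.227 ± 0.0490 and 0.577 ± 0.0250). H19 stood at 0.619 ± 0.197 CPM per kilobase in A101D, where its range overlapped that of KCNQ1OT1, and at 0.207 ± 0.0427 in MeWo, below all SAMMSON and KCNQ1OT1 libraries. MEG3 was last in both lines, at 0 in A101D and 0.00935 ± 0.00575 CPM per kilobase in MeWo. By CPM, without regard to length, MALAT1 had rank 1 among 15904 long noncoding genes in both lines, NEAT1 rank 3 in A101D and 4 in MeWo, and TUG1 rank 8 and 11.

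**Figure D1:**
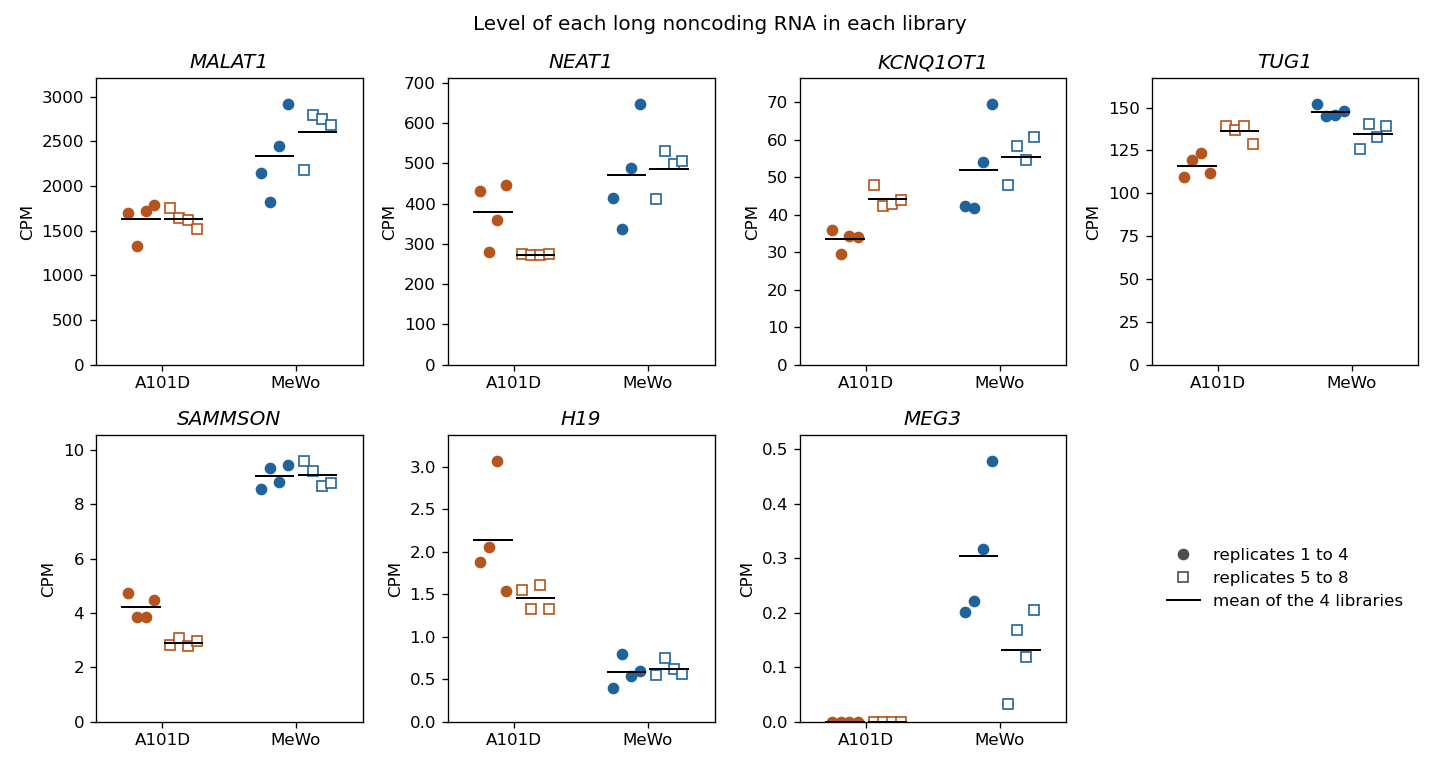
Level in CPM (vertical axis, from 0, its own scale in each panel) of the 7 long noncoding RNAs in each A101D and MeWo library; filled circles are replicates 1 to 4, open squares replicates 5 to 8, and bars the mean of 4 libraries. MALAT1 and SAMMSON are higher and H19 lower in every MeWo library than in every A101D library, while NEAT1, KCNQ1OT1 and TUG1 overlap between the lines. MEG3, which was not tested, has no count in A101D and only 1 to 16 counts per MeWo library.

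The comparison of the lines asks which of these RNAs differ between a methionine-dependent and a methionine-independent melanoma line. Of the 6 members with enough counts to test, 5 were called higher in MeWo (MALAT1, NEAT1, SAMMSON, KCNQ1OT1 and TUG1) and 1 lower (H19). The lines differ widely across all genes: 79.0% of the 19247 genes tested were called, 38.5% higher and 40.5% lower in MeWo, and the members' calls are read against those shares. For 3 of the 6 tested members no MeWo library fell within the A101D range (MALAT1, SAMMSON and H19), against 57.7% of all genes tested. The median log2 fold change was 0.51 over the 6 members and -0.02 over all genes tested. MEG3 did not pass the filter on low counts and was not tested.

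MALAT1, whose RNA binds splicing factors in speckles, ranged from 1326 to 1793 CPM in A101D with a median of 1666, and from 1818 to 2914 CPM in MeWo with a median of 2566. All 8 MeWo libraries were higher than all 8 A101D libraries, though the lowest MeWo library (replicate 2) was close to the highest A101D library (replicate 4). The difference was 1.50-fold (log2 0.58 ± 0.09 SE, adjusted p = 1.63e-05, limma). NEAT1, the paraspeckle scaffold, ranged from 271 to 446 CPM in A101D (median 277) and from 337 to 647 CPM in MeWo (median 493). The lines overlapped: 5 of 8 MeWo libraries lay above all A101D libraries, and 3 A101D libraries, replicates 1, 3 and 4, reached the MeWo range. NEAT1 was called 1.48-fold higher in MeWo (log2 0.56 ± 0.14 SE, adjusted p = 0.00135, limma), and this was not called in replicates 1 to 4 alone, as given below.

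SAMMSON, which supports mitochondrial function in melanoma cells by binding p32, ranged from 2.78 to 4.74 CPM in A101D (median 3.45) and from 8.55 to 9.58 CPM in MeWo (median 9.02). All MeWo libraries lay well above all A101D libraries. The difference was 2.58-fold (log2 1.37 ± 0.10 SE, adjusted p = 9.09e-10, limma), from 973 counts in all A101D libraries and 2457 in all MeWo libraries. The MeWo libraries were narrowly spread, with a coefficient of variation of 4.33% where counting alone gives 5.71%, whereas in A101D it was 21.6% against 9.07% from counting.

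TUG1, an RNA linked to gene silencing and to the regulation of the cell cycle, had the smallest difference of the 6 tested. It ranged from 109 to 139 CPM in A101D (median 126) and from 126 to 152 CPM in MeWo (median 143). The lines overlapped, with 5 of 8 MeWo libraries above all A101D libraries. The difference was small (log2 0.17 ± 0.06 SE, adjusted p = 0.0144, limma), and it depended on the replicates used, as given below.

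Of the imprinted RNAs, KCNQ1OT1 ranged from 29.6 to 48.0 CPM in A101D (median 39.1) and from 41.7 to 69.5 CPM in MeWo (median 54.3). Its lines overlapped, with 6 of 8 MeWo libraries above all A101D libraries. The difference was 1.38-fold (log2 0.46 ± 0.12 SE, adjusted p = 0.00146, limma). H19, host of the microRNA miR-675, went the other way: it ranged from 1.33 to 3.06 CPM in A101D (median 1.58) and from 0.400 to 0.789 CPM in MeWo (median 0.580). Every A101D library lay above every MeWo library. H19 was 2.86-fold lower in MeWo (log2 -1.51 ± 0.19 SE, adjusted p = 8.52e-07, limma), from 479 counts in all A101D libraries and 163 in all MeWo libraries.

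MEG3, the imprinted RNA of chromosome 14q32, had no count in any of the 8 A101D libraries. The MeWo libraries held 7, 7, 10, 16, 1, 6, 4 and 8 counts in replicates 1 to 8, or 0.0322 to 0.478 CPM with a median of 0.203. All 8 MeWo libraries thus had at least 1 count. Pooled over the line, the MeWo level was 0.217 CPM (exact Poisson 95% interval 0.165 to 0.280, covering counting error only), which, with the MeWo counts taken as they are, is at least 19.7-fold higher than the 0.0110 CPM that 3 counts over all A101D libraries would give.

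The mature microRNAs within H19 and MEG3 are shown to mark what these transcripts carry, with the seed, bases 2 to 8, in capitals. Both miR-675 arms lie within H19 (chr11:1996800-1996822 and chr11:1996768-1996787, minus strand) and miR-770-5p within MEG3 (chr14:100852409-100852431, plus strand), all from RefSeq on GRCh38.p14. The 3 seeds differ from each other.
hsa-miR-675-5p: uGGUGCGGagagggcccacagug
hsa-miR-675-3p: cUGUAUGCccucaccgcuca
hsa-miR-770-5p: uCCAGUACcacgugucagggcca

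Neither MIR675 nor MIR770 had a count in any library, so the files give no measure of the mature microRNAs.

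The replicate numbers 1 to 4 and 5 to 8 are treated here as ranges only, since no label says what sets them apart. In A101D, the libraries of the 2 ranges did not overlap for 4 of the 6 tested members, NEAT1, SAMMSON, TUG1 and KCNQ1OT1, against 62.3% of all genes tested. In MeWo, they did not overlap for 1 of the 6, TUG1, against 18.3% of all genes tested. These splits are descriptions and carry no test. Other measures of the A101D libraries also separated the ranges. From replicates 1 to 4 to replicates 5 to 8, genes with a count went from 31281 to 33107 up to 34020 to 34607, and RN7SL1, an abundant cytoplasmic RNA, from 9078 to 11873 down to 6228 to 8121 CPM. The mitochondrial share was 1.71 to 1.92% and then 1.93 to 2.33%. The summed fibroblast markers stood at 919 to 1039 and then 590 to 657 CPM, and the pigment cell markers at 2872 to 3442 and then 2527 to 2763 CPM. The endothelial list (3.74 to 4.77, then 15.3 to 19.9 CPM), the other epithelial list (9.49 to 11.4, then 22.9 to 28.5 CPM), the leukocyte list (2.03 to 3.58, then 4.82 to 7.08 CPM) and the keratinocyte list (0.405 to 0.860, then 1.63 to 2.25 CPM) were higher in the later libraries. The part of these measures in the members' values was not tested.

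SAMMSON in A101D was 4.74, 3.83, 3.84 and 4.48 CPM in replicates 1 to 4 and 2.81, 3.07, 2.78 and 2.96 CPM in replicates 5 to 8. The second range was lower throughout, with a log2 ratio of means of -0.54, whereas in MeWo the ratio was 0.0049 (9.04 ± 0.431 and 9.07 ± 0.415 CPM, SD, n = 4 each). MITF was also lower in the later A101D libraries, at 192 to 238 CPM in replicates 1 to 4 and 143 to 159 CPM in replicates 5 to 8 (log2 ratio -0.53). SOX10 differed less, at 376 to 407 and 356 to 381 CPM, and these ranges overlapped.

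NEAT1 in A101D was 432, 279, 360 and 446 CPM in replicates 1 to 4 and 274, 271, 272 and 274 CPM in replicates 5 to 8. The later libraries were nearly equal to one another and all below the earlier ones, of which replicate 2 was the closest. The log2 ratio was -0.48 in A101D and 0.05 in MeWo. With total counts as the only scaling, the A101D ranges of NEAT1 overlapped (log2 ratio -0.39).

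KCNQ1OT1 in A101D was 35.9, 29.6, 34.3 and 34.1 CPM in replicates 1 to 4 and 48.0, 42.3, 42.8 and 43.8 CPM in replicates 5 to 8. It was higher in the later libraries (log2 ratio 0.40), opposite to NEAT1 and SAMMSON. In MeWo its ranges overlapped (log2 ratio 0.10).

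TUG1 in A101D was 109, 119, 123 and 112 CPM in replicates 1 to 4 and 139, 137, 139 and 129 CPM in replicates 5 to 8, a log2 ratio of 0.23. In MeWo it was 152, 145, 146 and 148 CPM and then 126, 141, 133 and 139 CPM, a log2 ratio of -0.13. The 2 lines thus moved in opposite directions between the ranges. MALAT1 had a mean of 1633 CPM in both A101D ranges, and its ranges overlapped in both lines.

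Compared within replicates 1 to 4 alone, where 81.3% of all genes tested were called, 5 of the 6 tested members were called. The exception was NEAT1 (log2 0.29 ± 0.25 SE, adjusted p = 0.308, limma). Within replicates 5 to 8 alone, where 85.5% were called, the exception was TUG1 (log2 -0.014 ± 0.04 SE, adjusted p = 0.724, limma), while in replicates 1 to 4 TUG1 was 0.35 ± 0.04 (adjusted p = 2.52e-09). NEAT1 stood at 0.83 ± 0.07 in replicates 5 to 8 (adjusted p = 5.48e-07, limma). SAMMSON was 1.09 ± 0.10 higher on the log2 scale in replicates 1 to 4 and 1.63 ± 0.09 in replicates 5 to 8, and H19 -1.83 ± 0.25 and -1.21 ± 0.20. Whether the line difference itself differed between the ranges was not tested.

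**Figure D2:**
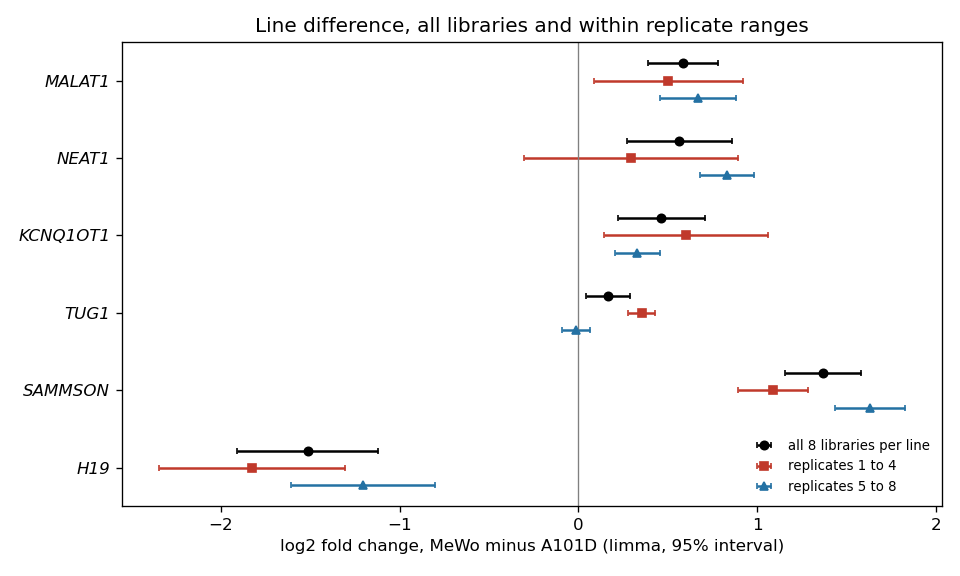
log2 fold change of MeWo minus A101D (horizontal axis) for the 6 tested RNAs, from all 8 libraries per line (circles), replicates 1 to 4 (squares) and replicates 5 to 8 (triangles), with 95% intervals from limma. The interval of TUG1 in replicates 5 to 8 (-0.09 to 0.06) and that of NEAT1 in replicates 1 to 4 (-0.31 to 0.89) include 0.

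Within MeWo, MALAT1, NEAT1 and KCNQ1OT1 rose and fell together from library to library. MALAT1 was 2143, 1818, 2449, 2914, 2179, 2801, 2746 and 2682 CPM in replicates 1 to 8, and NEAT1 was 414, 337, 488, 647, 411, 532, 498 and 507 CPM. Replicate 2 was lowest and replicate 4 highest in both, and KCNQ1OT1 had the same lowest and highest libraries, at 41.7 and 69.5 CPM. The ratio of MALAT1 to NEAT1 counts stayed between 4.51 and 5.51 in MeWo, against 3.92 to 6.42 in A101D.

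Over the 8 MeWo libraries, Pearson's r of log2 CPM was 0.957 between MALAT1 and NEAT1 (exact permutation p = 9.92e-05, adjusted 0.00119, Spearman's rho 0.952, permutation p = 0.00114). Between MALAT1 and KCNQ1OT1 it was 0.923 (exact permutation p = 0.000546, adjusted 0.00218, rho 0.929, permutation p = 0.00223). Between NEAT1 and KCNQ1OT1 it was 0.949 (exact permutation p = 0.000372, adjusted 0.00218, rho 0.952, permutation p = 0.00114). Without the 2 libraries farthest from the median on the x axis, these were 0.889, 0.861 and 0.913. The tests were two-sided, and the adjustment covers 12 relations among MALAT1, NEAT1, TUG1 and KCNQ1OT1 in both lines. In MeWo, r of TUG1 was -0.083 with MALAT1, 0.085 with NEAT1 and -0.042 with KCNQ1OT1. In A101D, r was 0.517 between MALAT1 and NEAT1, 0.364 between MALAT1 and KCNQ1OT1 and -0.504 between NEAT1 and KCNQ1OT1. For TUG1 in A101D, r was -0.019 with MALAT1, -0.857 with NEAT1 and 0.766 with KCNQ1OT1. Of these 9, only NEAT1 and TUG1 in A101D had an adjusted p under 0.05 (0.0199, exact permutation). NEAT1, TUG1 and KCNQ1OT1 in A101D, and TUG1 in MeWo, fall into the 2 replicate ranges, which leaves 4 libraries each. Among NEAT1, TUG1 and KCNQ1OT1 in A101D, a relation between libraries therefore cannot be told apart from the difference between the ranges. In the rest of these 9, only 1 of the 2 RNAs fell into the ranges. MALAT1, for example, had a mean of 1633 CPM in both A101D ranges. The part of the ranges in those relations was not tested. NEAT1 was lower and KCNQ1OT1 higher in A101D replicates 5 to 8. Nothing above shows the 3 MeWo relations among MALAT1, NEAT1 and KCNQ1OT1 to be particular to MeWo or to these RNAs. The MeWo libraries share their scaling, and their TMM factors ran from 0.971 to 1.02, with replicate 2 lowest and replicate 6 highest. The MeWo correlations were also computed under other scalings, as given in the last section. Beyond that, the part of the scaling was not tested. RN7SL1 was at 13912 to 16434 CPM in MeWo replicates 1 to 4 and at 5594 to 8972 CPM in replicates 5 to 8.

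**Figure D3:**
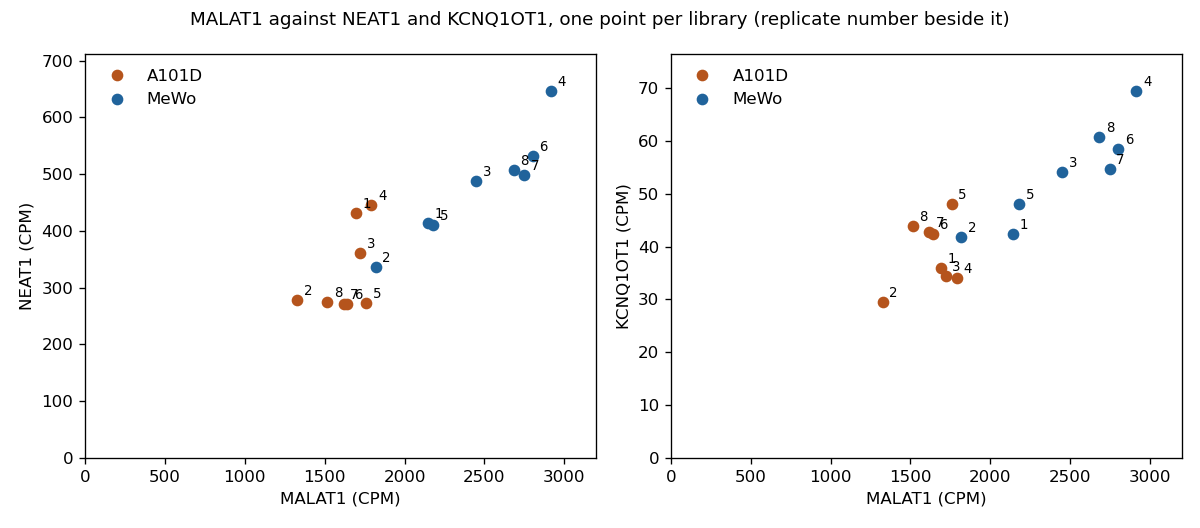
NEAT1 (left) and KCNQ1OT1 (right) in CPM on the vertical axis against MALAT1 in CPM, one point per library with its replicate number. The MeWo points lie along 1 line from replicate 2 to replicate 4, while in A101D replicates 5 to 8 lie below replicates 1 to 4 for NEAT1 and above them for KCNQ1OT1.

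The genes whose line-centred log2 CPM was most like that of each member over the 16 libraries, among 11368 genes with a mean of at least 5 CPM, are given as a description. For MALAT1 they were NLRP1 (r = 0.921), CLMAT3 (0.919) and MIR23AHG (0.919), and for NEAT1 they were TTN (0.905), STARD13-AS (0.891) and ZNF514 (0.890). For KCNQ1OT1 they were the noncoding RNAs FTX (r = 0.945), TPT1-AS1 (0.943) and PLAC4 (0.938). SAMMSON was most like RELL2 (r = 0.971), MORN1 (0.967) and HAGHL (0.959), and TUG1 most like FBXO30 (0.948), CDC42BPA (0.945) and NOMO2 (0.928). H19 had lower coefficients, with OARD1 (r = 0.818), PIGF (0.812) and SLC10A7 (0.811). The coefficients rest on the same libraries and scaling, and in A101D partly on the 2 replicate ranges: for HAGHL and SAMMSON, r was 0.987 within A101D and 0.320 within MeWo. Within MeWo, r was 0.929 to 0.943 for the 3 genes named for MALAT1, 0.854 to 0.969 for NEAT1 and 0.959 to 0.986 for KCNQ1OT1. MALAT1, NEAT1 and KCNQ1OT1 gave 0.923 to 0.957 with each other there. Genes picked from the 11368 for their likeness followed the MeWo libraries about as closely. The MeWo libraries were part of that choice, so the comparison does not show how common such coefficients are.

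Of 15 genes for paraspeckle proteins, all tested, 10 were called higher and 2 lower in MeWo, with a median log2 fold change of 0.41. Over all genes tested, 38.5% were called higher and 40.5% lower, 79.0% in all, and the counts of this and the following lists are read against those shares. Among the core proteins that NEAT1 holds, SFPQ stood at 330 ± 37.4 CPM in A101D and 344 ± 9.43 in MeWo (adjusted p = 0.304, limma). That comparison joins 2 opposite differences. In replicates 1 to 4, SFPQ was higher in every A101D library (358 to 374 CPM) than in any MeWo library (334 to 357 CPM). In replicates 5 to 8, SFPQ was lower in every A101D library (278 to 314 CPM) than in any MeWo library (329 to 347 CPM). NONO, its partner in the core, was called higher in MeWo (423 ± 150 and 538 ± 22.6 CPM, log2 0.43 ± 0.17 SE, adjusted p = 0.0320, limma), with overlapping lines. The NONO difference lay in replicates 5 to 8 (261 to 312 CPM in A101D, 500.5 to 544 in MeWo), while replicates 1 to 4 overlapped (550.4 to 574 and 535 to 566 CPM). PSPC1, the third core protein, rose from 49.9 ± 3.92 to 66.0 ± 2.72 CPM (log2 0.41 ± 0.05 SE, adjusted p = 5.06e-07). The farthest apart were RUNX3, a transcription factor (14.3 to 18.6 CPM in A101D, 90.9 ± 2.98 CPM in MeWo, log2 2.50), and HNRNPH3, a splicing regulator (log2 0.65), on the higher side. On the lower side were the chromatin remodeller SMARCA4 (log2 -0.26) and the RNA-binding protein EWSR1 (log2 -0.19).

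Of 10 genes for speckle proteins and MALAT1 processing, 7 were called higher and 1 lower, beside 79.0% of all genes called in either direction, with a median of 0.62. PNN, a splicing-associated protein, stood at 68.2 ± 21.8 CPM in A101D and 129 ± 9.17 in MeWo (log2 0.99), and the splicing regulator RBM25 at 97.0 ± 16.3 and 163 ± 4.87 CPM (log2 0.77). Both split by replicate range in A101D. PNN was at 83.9 to 93.6 CPM in replicates 1 to 4 and 45.6 to 51.0 CPM in replicates 5 to 8. RBM25 was at 108 to 115 and then 77.9 to 85.7 CPM. Every MeWo library was higher than these. ACIN1 had the smallest rise (log2 0.38 ± 0.03 SE), and SON, a scaffold of speckles, was the gene called lower (224 ± 19.5 and 180 ± 7.32 CPM, log2 -0.31 ± 0.05 SE).

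The imprinted region of chromosome 11p15.5 holds both H19 and KCNQ1OT1. Of its 13 listed genes, 8 were tested; 7 were called higher in MeWo and none lower, with a median of 2.17, the highest of the lists. CDKN1C, a cell cycle inhibitor that KCNQ1OT1 is known to silence in cis, had 51 counts in A101D and 2186 in MeWo (0.185 ± 0.115 and 8.01 ± 1.49 CPM, log2 5.53 ± 0.31 SE, adjusted p = 1.68e-11, limma). OSBPL5, a lipid transfer protein gene, was 4.87 ± 2.42 and 35.9 ± 4.96 CPM (log2 3.05). Both genes split by replicate range in both lines, in opposite directions. From replicates 1 to 4 to replicates 5 to 8, OSBPL5 went from 6.41 to 8.24 down to 2.19 to 3.35 CPM in A101D. In MeWo it went from 38.4 to 42.4 down to 28.8 to 34.4 CPM. CDKN1C went from 0.0623 to 0.148 up to 0.222 to 0.381 CPM in A101D. In MeWo CDKN1C went from 5.69 to 7.88 up to 8.51 to 9.96 CPM. The smallest calls were the tetraspanin CD81 (99.2 ± 5.15 and 206 ± 7.57 CPM, log2 1.05) and PHLDA2 (9.33 ± 0.710 and 23.3 ± 2.27 CPM, log2 1.31). H19, by contrast, was called lower in MeWo, and IGF2, its oppositely imprinted neighbour, had 0 counts in A101D and 3 in MeWo. SLC22A18 and its antisense gene SLC22A18AS both count among the 7, and since the strand setting of the counting is not given in the sources used here, their reads cannot be told apart.

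Of the 6 imprinted genes of 14q32 listed beside MEG3, none passed the filter on low counts. DLK1, a growth regulator, had 0 counts in A101D and 6 in MeWo, and RTL1, derived from a retrotransposon, had 2 and 4.

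Around SAMMSON, 6 of 7 listed genes were called higher in MeWo and 1 lower, with a median of 0.52. MITF rose from 182 ± 37.5 to 560 ± 27.3 CPM (log2 1.64 ± 0.10 SE, adjusted p = 5.76e-11, limma), and SOX10 from 379 ± 14.7 to 459 ± 16.1 CPM (log2 0.28 ± 0.03 SE, adjusted p = 6.38e-07, limma). C1QBP, which encodes p32, rose from 225 ± 44.1 to 318 ± 21.2 CPM (log2 0.52 ± 0.10 SE). In A101D it was at 258 to 277 CPM in replicates 1 to 4 and 171 to 196 CPM in replicates 5 to 8. CDKN2AIP, which encodes CARF, a protein bound by SAMMSON, was lower (23.2 to 37.2 CPM in A101D, 13.1 to 16.02 CPM in MeWo, log2 -1.03). FOXP1, a transcription factor gene beyond SAMMSON on chromosome 3, had 10 counts in A101D and 1197 in MeWo, but another gene is annotated over it on the same strand, so its counts are uncertain.

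Among 9 neighbours of the members, 7 were tested, 2 were called higher and 3 lower, with a median of 0.08. MRPL23, a mitochondrial ribosome gene near H19, was higher in MeWo (6.90 ± 1.29 and 9.82 ± 0.696 CPM, log2 0.53 ± 0.10 SE). MORC2, the divergent neighbour of TUG1, was lower in MeWo (66.6 ± 16.3 and 39.2 ± 1.63 CPM, log2 -0.73 ± 0.12 SE, adjusted p = 4.01e-05, limma), as were MORC2-AS1 (log2 -0.89) and SMTN (log2 -0.80). In A101D, MORC2 stood at 49.7 to 54.2 CPM in replicates 1 to 4 and at 79.0 to 86.0 CPM in replicates 5 to 8, the same direction as TUG1 there. In MeWo its ranges overlapped (36.6 to 40.5 and 39.0 to 41.4 CPM, log2 ratio 0.07), whereas TUG1 was lower in replicates 5 to 8.

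Of 24 other long noncoding RNAs tested, 12 were called higher and 11 lower, with a median of 0.12; over all 3622 tested genes of long noncoding types, 1334 were higher and 1322 lower. BANCR, an RNA described in melanoma, had 15370 counts in A101D and 26 in MeWo (56.3 ± 5.43 and 0.0953 ± 0.0663 CPM, log2 -9.21 ± 0.28 SE). FENDRR was also lower in MeWo (log2 -2.97), while MIR99AHG (log2 2.65) and NKILA (log2 2.58) were the farthest on the higher side.

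**Figure D4:**
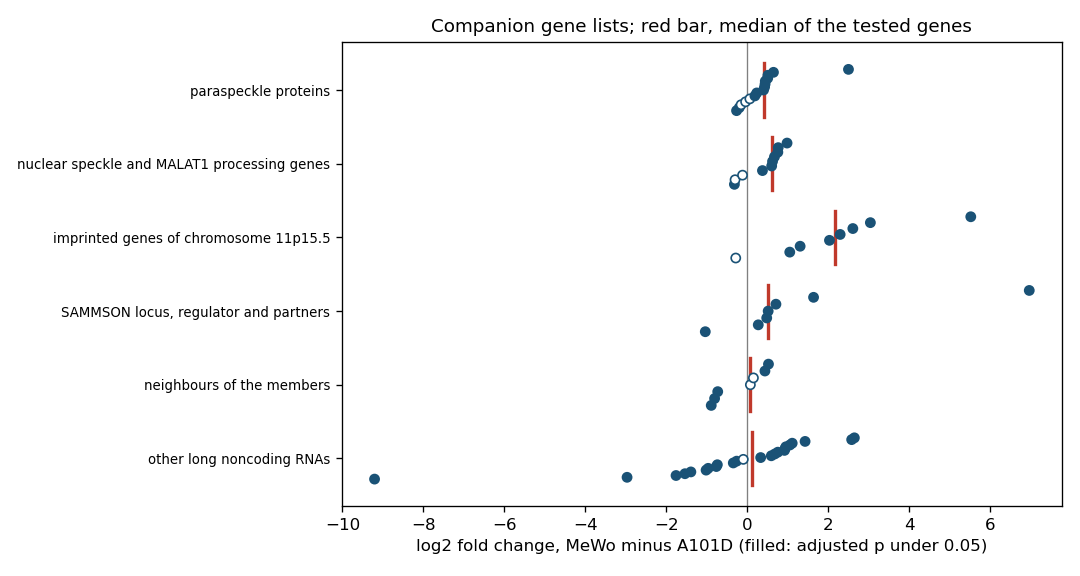
log2 fold change of MeWo minus A101D (horizontal axis) for each tested gene of 6 companion lists (rows), filled where the adjusted p is under 0.05, with a red bar at the list's median. The 11p15.5 list has the highest median, 2.17, and the other long noncoding RNAs spread on both sides of 0, with BANCR at -9.21.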

How the data were processed

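Total RNA libraries, made with a stranded kit per the labels' protocols, were trimmed with Trimmomatic 0.39-1, aligned to GRCh38 with STAR 2.7.1a and counted with featureCounts 2.0.0, per the submitters' processing notes; which annotation release and strand setting they used is not given in the sources used here. The deposited tables, 1 per line, hold cells that each join a gene identifier and a whole-number read count per gene, and the authors did not normalize these values; both were separated before use, and all 16 columns matched a sample title. Of 60676 identifiers, 58503 were in GENCODE release 29, from which exon lengths and positions were taken.

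TMM factors were computed over 19247 genes with at least 0.298 CPM in 8 libraries and 15 counts in all. The 2 lines were fitted in limma (version 3.58.1, R 4.3.3) (voom weights, robust moderation, no block, MeWo minus A101D), with Benjamini-Hochberg adjustment over all genes tested. The fit was tested on simulated data. Analysis used Python 3.11.15 with pandas 2.3.3 and SciPy 1.17.1. CPM are counts for a TMM-scaled library size of 1000000, and CPM per kilobase divides by the joined length of all annotated exons. Exact permutation tests used all 40320 orders of 8 libraries.

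Named genes were all 7 members, 13 genes tied to them by locus or by function, the 2 largest and 2 smallest called changes of each companion list, and the 3 genes most like each tested member. One gene that this rule names is not reported here. The members and lists were chosen with earlier results of these data known. MATR3 had 2 identifiers, and TALAM1, LINC00673 and LINC00152 matched none, so they were not used.

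Alternatives were other size factors, other filters, limma-trend, a replicate block, subsets of libraries and a stricter threshold. Replicate numbers did not pair the lines' libraries, and Poisson intervals cover counting error only.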

Additional observations from a re-analysis of the deposited data

Results flagged for a closer look

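H19 in A101D replicate 3 stood apart from the other 7 A101D libraries, at 3.06 CPM (86 counts, exact Poisson 95% interval 2.45 to 3.78 CPM, covering counting error only). Its gap to the next library, replicate 2 at 2.06 CPM, was 0.578 of the line's range, above Dixon's 95% critical value for 8 samples; 13 groups were examined, of which chance flags about 1 in 20. Without that library, H19 stayed lower in MeWo (log2 -1.41 ± 0.15 SE, adjusted p = 1.69e-07, limma).

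TUG1 moved in opposite directions between replicates 1 to 4 and 5 to 8 in the 2 lines. The log2 ratio of the later to the earlier replicates was 0.23 in A101D and -0.13 in MeWo, with no overlap of libraries in either line. The difference between the lines was not tested. With TMM factors over all genes the A101D libraries overlapped (0.16), and with total counts as the only scaling the MeWo libraries overlapped (-0.10).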

How the results depend on the processing

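MALAT1, SAMMSON, KCNQ1OT1 and H19 kept direction and call in all 25 other fits run and at a threshold of 0.01; NEAT1 lost its call in replicates 1 to 4 only (0.29). TUG1 reversed sign in replicates 5 to 8 only (-0.014), and it was not called with a replicate block (0.17, adjusted p = 0.0522, limma) or at a threshold of 0.01. Leaving out each library in turn gave TUG1 0.14 to 0.19 and changed no member's call. The replicate numbers do not pair the lines (same-number correlations 0.0528 to 0.175, and not every library matched its own number best), and the block changed no other member's call. It moved the count of neighbours called higher from 2 to 4. The speckle list had 2 genes called lower instead of 1 in replicates 1 to 4 only, in replicates 5 to 8 only and without A101D replicate 4, and the 11p15.5 list had 1 instead of 0 in replicates 5 to 8 only; the cause was not tested. The A101D log2 ratio of TUG1 between replicate ranges was 0.32 with total counts only and 0.16 with TMM factors over all genes, against 0.23. TMM factors over all genes, leaving out single libraries and other scalings of the correlations were chosen after seeing the data. The MeWo correlations among MALAT1, NEAT1 and KCNQ1OT1 ranged from 0.905 to 0.961 over these alternatives. Without the filter on low counts, MEG3 was fitted at 3.73 (adjusted p = 1.25e-09, limma), which depends on the offset for zero counts. H19 and MEG3 rest on few counts. edgeR and DESeq2, listed as alternatives, were not run.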
